A study of Mus musculus with 46 samples.

Results

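Complex I of the respiratory chain is assembled from subunits of 2 genomes, and 7 of them are made from the small circular genome inside the mitochondrion. These are ND1, ND2, ND3, ND4, ND4L, ND5 and ND6, named here as in the deposited tables, and they were taken by symbol from the 45777 gene symbols of each table. All 7 were present in all 5 tables, and all 7 passed the filter on low counts in each. The rule that picked them used symbols and no measured value, but it was set with earlier results of these data known. The 6 other mitochondrial mRNAs (COX1, COX2, COX3, ATP6, ATP8 and CYTB) served as the nearest comparison.

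The libraries were made from gut tissue of male C57BL/6J mice, to compare imeglimin and metformin. In the acute experiment, mice were given imeglimin or metformin once by mouth at 600 mg/kg, or were controls, and colon was taken at 6 h. In the chronic experiment, imeglimin or metformin was in the drinking water at 3 mg/mL for 4 weeks, or mice were controls, and 3 stretches of small intestine (proximal, middle, distal) were taken along with colon. Each of the 15 groups had 3 libraries, 45 in all, each made from whole intestinal tissue. The labels give neither the age of the mice nor what the controls received, and they do not say whether the libraries of a group were separate animals, so the p-values cover only the spread between these samples. In bulk tissue, fewer cells of a type and less RNA per cell cannot be told apart.

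Complex I takes electrons from NADH, passes them to ubiquinone and pumps protons across the inner mitochondrial membrane. Its mitochondrially encoded subunits form the core of the membrane arm. ND1 lies at the ubiquinone site, ND3, ND4L and ND6 sit in the part of the arm next to it, and ND2, ND4 and ND5 are the antiporter-like subunits that carry protons. Metformin is a biguanide widely described as an inhibitor of complex I, and imeglimin is a related compound built on a tetrahydrotriazine ring. Mitochondrial RNA is transcribed as long precursors that are cut at the tRNAs between the messages. ND6 is the only mRNA made from the light strand, and in human cells its mRNA lacks the long poly(A) tail that the other mitochondrial mRNAs carry.

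Along the circle the genes run mt-Rnr1 and mt-Rnr2 (the ribosomal RNAs), ND1, ND2, COX1, COX2, ATP8, ATP6, COX3, ND3, ND4L, ND4, ND5, ND6 and CYTB. In the GENCODE M21 annotation (GRCm38) the members span 957 bases for ND1, 1038 for ND2, 348 for ND3, 297 for ND4L, 1378 for ND4, 1824 for ND5 and 519 for ND6. The ND6 mRNA is rich in guanine (28.1% of bases), which makes up 8.0% to 11.6% of the 6 others. Members overlap at 2 places, and the ends that share bases are shown because reads there can belong to either gene. ND4L and ND4 lie on a shared mRNA and overlap by 7 bases, and ND5 and ND6 overlap by 14 bases on opposite strands. Each sequence is 30 bases of chromosome MT written 5′ to 3′ on the gene's own strand, and capitals mark the shared bases:
ND4L end: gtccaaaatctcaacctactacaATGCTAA
ND4 start: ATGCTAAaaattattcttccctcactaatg
ND5 end: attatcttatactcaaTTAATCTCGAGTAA
ND6 end: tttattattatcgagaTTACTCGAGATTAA
The start codon of ND4 thus lies inside the last codons of ND4L. The library kit marks strand, but the strand setting of the counting was not given in the sources used here. Without it, reads from ND5 and ND6 at this end cannot be told apart. Nuclear copies of mitochondrial DNA exist in the mouse, and how reads that match both were assigned is not stated either.

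The libraries held 31606797 to 47324301 counts, of which the 13 mitochondrial mRNAs took 4.76% to 9.99% and the 7 members 1.18% to 2.27%. Member counts per library were 104914 to 316346 for ND1, 91042 to 221894 for ND4, 55847 to 225588 for ND5 and 2921 to 8766 for ND6, the least counted. Markers of colon summed to 1240 to 13591 CPM (counts scaled to the library size of each table) in colon libraries and to at most 63.2 CPM in small intestine, as labelled. All 10 epithelial markers were detected in the colon tables. Some libraries stood apart. Chronic colon control library 3 held 8109 CPM of pancreatic acinar markers against 192 to 310 CPM in the other 8 chronic colon libraries. Acute colon control library 1 held 634 CPM of small-intestine markers against 307 to 361 CPM in the other acute controls, and acute metformin library 2 held 1999 CPM of smooth muscle markers against 4960 to 7847 CPM in the other acute metformin libraries. Distal control library 1 held 929 CPM of fibroblast markers and 236 CPM of endothelial markers, against 510 to 529 CPM and 97.3 to 112 CPM in the other distal controls. Results that move without these libraries are given both ways.

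Levels of the members differed widely. Per kilobase of gene, the acute colon controls had 6169 ± 759 CPM per kb of ND1 and 3797 ± 397 CPM per kb of ND4 (SD, n = 3). Next came ND2 at 2491 ± 270, ND5 at 2429 ± 494 and ND4L at 2380 ± 236 CPM per kb, which did not differ beyond their spread. ND3 had 728 ± 43.1 CPM per kb and ND6 had 334 ± 94.8 CPM per kb. ND4L and ND4 share 1 mRNA, and their values per kb in these controls were apart by more than their spread. Since the kit selects polyadenylated RNA, a level reflects both the amount and the tail of an RNA.

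**Figure D1:**
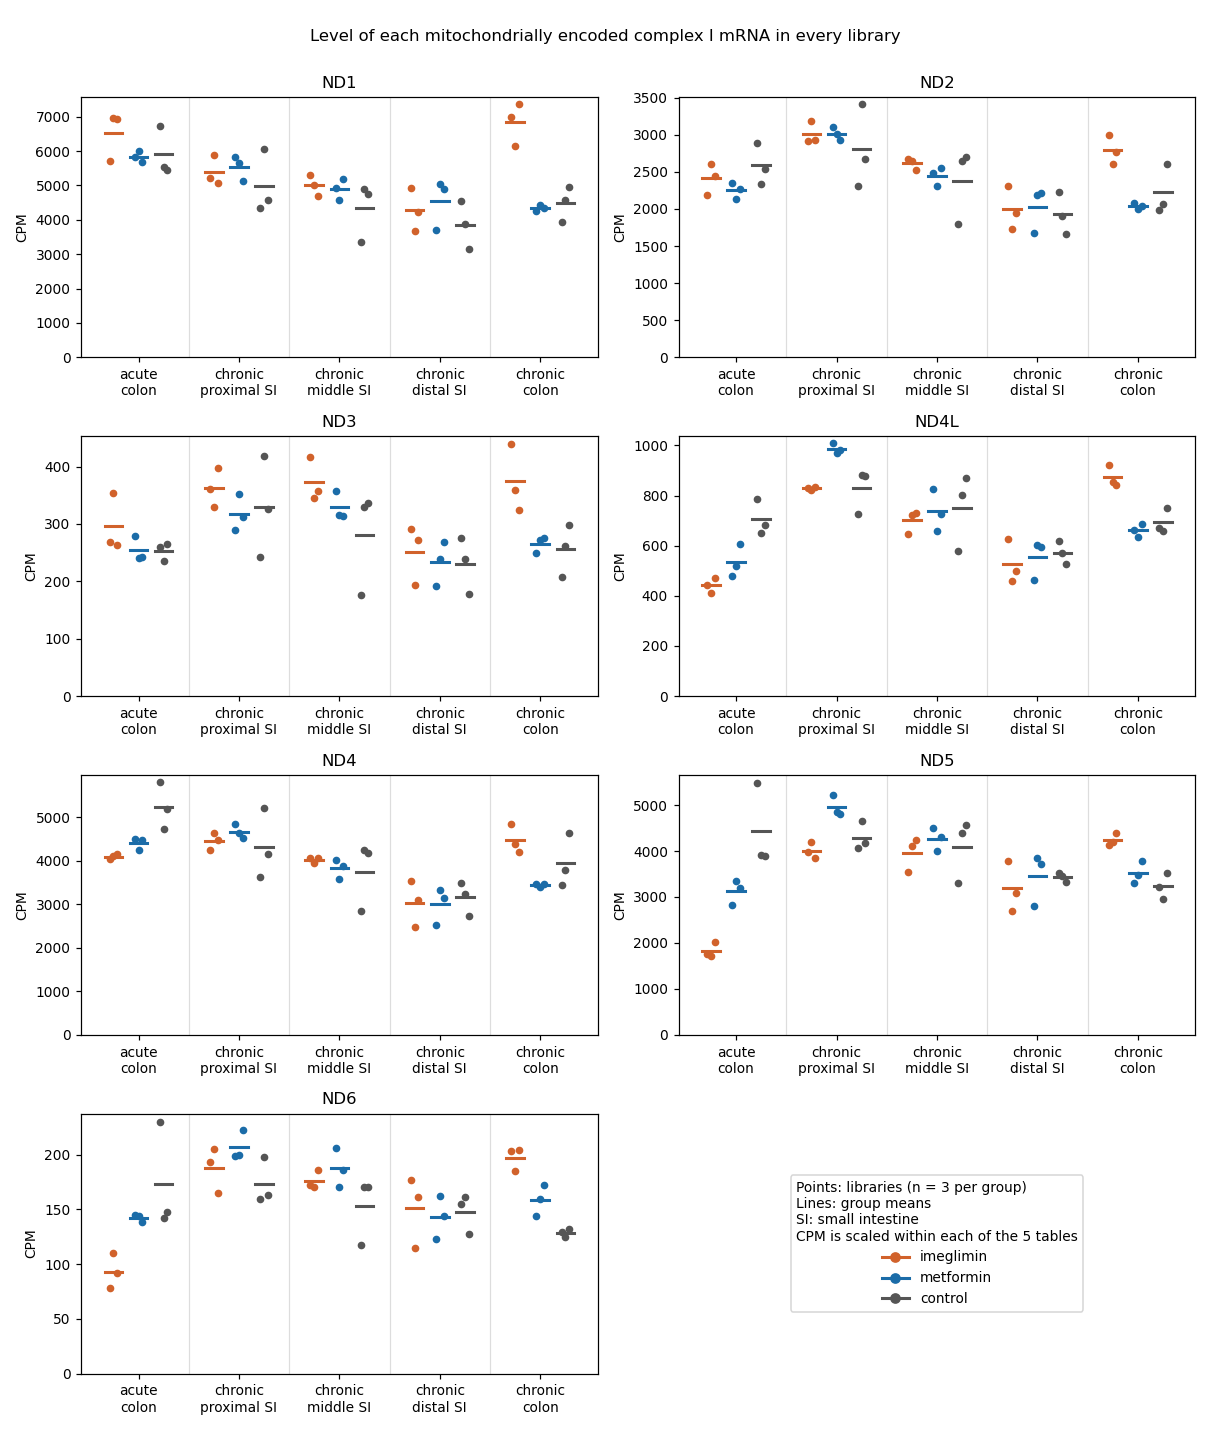
CPM of each member in every library, in 5 tables of tissue, with imeglimin, metformin and control side by side; points are libraries, lines are means of 3, and CPM is scaled within a table. ND5 in acute colon lies at 1708 to 2014 CPM with imeglimin, 2820 to 3347 CPM with metformin and 3899 to 5471 CPM in controls.

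In colon at 6 h after imeglimin, 4 of 7 members fell against controls, namely ND5, ND6, ND4L and ND4, and 0 rose. Over all 18294 genes tested, 33.3% passed (edgeR quasi-likelihood test, Benjamini-Hochberg adjusted p under 0.05), 15.1% lower and 18.1% higher. The median log2 fold change was -0.35 over the members and -0.030 over all genes.

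ND5, the antiporter-like subunit at the far end of the membrane arm, had 1761, 1708 and 2014 CPM in the imeglimin libraries, against 5471, 3919 and 3899 CPM in the controls. All imeglimin libraries lay below all controls. The log2 fold change was -1.28 ± 0.14 (SE), a level 0.413 times that of controls (edgeR adjusted p = 0.00014). ND6, the light-strand message, had 78.0, 110 and 91.9 CPM with imeglimin and 230, 142 and 148 CPM in controls. Its groups did not overlap either, control library 1 stood above the other controls, and it fell by 0.89 ± 0.18 on the log2 scale (edgeR adjusted p = 0.00333). ND4L had 444, 411 and 472 CPM with imeglimin and 786, 652 and 683 CPM in controls, with every imeglimin library below, and fell by 0.67 ± 0.11 (edgeR adjusted p = 0.00139). ND4, encoded on the same mRNA, had 4026, 4106 and 4147 CPM with imeglimin and 5805, 4714 and 5179 CPM in controls. It fell by 0.35 ± 0.097 on the log2 scale (edgeR adjusted p = 0.0164), and this call was lost without imeglimin library 2 or 3, which left 3 members called. Without control library 1 the log2 fold changes were -1.11 for ND5, -0.65 for ND6, -0.61 for ND4L and -0.29 for ND4, all still called.

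The 3 members that lie before ND4L on the genome did not pass. ND1 had 5711, 6965 and 6931 CPM with imeglimin and 6741, 5530 and 5440 CPM in controls (log2 fold change 0.15 ± 0.12, edgeR adjusted p = 0.359). ND2 had 2186, 2607 and 2444 CPM with imeglimin and 2887, 2333 and 2538 CPM in controls (-0.10 ± 0.11, edgeR adjusted p = 0.512). ND3 had 269, 355 and 263 CPM with imeglimin and 259, 236 and 264 CPM in controls (0.22 ± 0.12, edgeR adjusted p = 0.193). For these 3 the libraries of the groups overlapped, and the 95% intervals reached from -0.34 to 0.50 on the log2 scale.

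With acute metformin, 2 of 7 members fell (ND5 and ND4L) and 0 rose, against 19.7% of all genes called, 8.37% lower. ND5 had 2820, 3347 and 3199 CPM with metformin and 5471, 3919 and 3899 CPM in controls. Metformin libraries lay between those of imeglimin and of controls without overlap. The log2 fold change was -0.50 ± 0.14 (edgeR adjusted p = 0.0289). With the replicate number as a block this call was lost (adjusted p = 0.0583), which left 1 member. ND4L had 478, 520 and 606 CPM with metformin and 786, 652 and 683 CPM in controls, and fell by 0.40 ± 0.11 (edgeR adjusted p = 0.0306). Without control library 1, or without metformin library 1, 0 members passed, and without control library 1 the log2 fold changes were -0.33 for ND5 and -0.32 for ND4L. Without control library 3, metformin library 2 or metformin library 3, 1 member passed.

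Among the other members, ND4 had 4499, 4238 and 4476 CPM with metformin and 5805, 4714 and 5179 CPM in controls, below without overlap, at a log2 fold change of -0.25 ± 0.097 that missed the threshold (edgeR adjusted p = 0.0935). ND6 had 145, 144 and 138 CPM with metformin and 230, 142 and 148 CPM in controls (-0.28 ± 0.18, edgeR adjusted p = 0.286), and without control library 1 its log2 fold change was -0.030. ND2 (-0.20 ± 0.11), ND1 (-0.016 ± 0.12) and ND3 (0.0041 ± 0.12) had adjusted p of 0.218 to 0.987 and overlapping libraries.

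Set directly against each other at the same dose and time, acute imeglimin and metformin differed in 1 of 7 members, against 0.645% of all genes, 0.169% lower with imeglimin. ND5 was lower with imeglimin by 0.77 ± 0.14 on the log2 scale (1761, 1708 and 2014 CPM with imeglimin against 2820, 3347 and 3199 CPM with metformin, edgeR adjusted p = 0.0446, 95% interval -1.08 to -0.46). With the replicate block this was lost (adjusted p = 0.102, 0 members), and the count was 0 or 1 with single libraries left out. For ND6 the difference was -0.61 (95% interval -1.003 to -0.22, edgeR adjusted p = 0.147) and for ND4L -0.27 (-0.52 to -0.021, adjusted p = 0.271), both below the metformin libraries without overlap. ND1, ND2, ND3 and ND4 differed by -0.11 to 0.22, with intervals within -0.32 to 0.49.

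The other mitochondrial genes give the frame for these values. Of the other mitochondrial mRNAs in acute colon, ATP8 (-0.43 ± 0.12, adjusted p = 0.0192) and CYTB (-0.28 ± 0.087, adjusted p = 0.0294) fell with imeglimin, COX1, COX2, COX3 and ATP6 lay within -0.11 to 0.018, and with metformin 0 of 6 passed. By contrast the ribosomal RNAs, which open the same precursor, rose. mt-Rnr2 had 3887, 4779 and 4076 CPM with imeglimin, 3196, 1744 and 1682 CPM with metformin and 974.6, 834 and 903 CPM in controls. Both drug groups lay above all controls, by 2.23 ± 0.22 with imeglimin (adjusted p = 7.2e-05) and by 1.29 ± 0.22 with metformin (adjusted p = 0.00231) on the log2 scale. mt-Rnr1 rose by 1.67 ± 0.17 with imeglimin (adjusted p = 0.000102) and by 1.13 ± 0.17 with metformin (adjusted p = 0.00141). Ribosomal RNA is recovered here only as far as poly(A) selection lets it through.

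**Figure D2:**
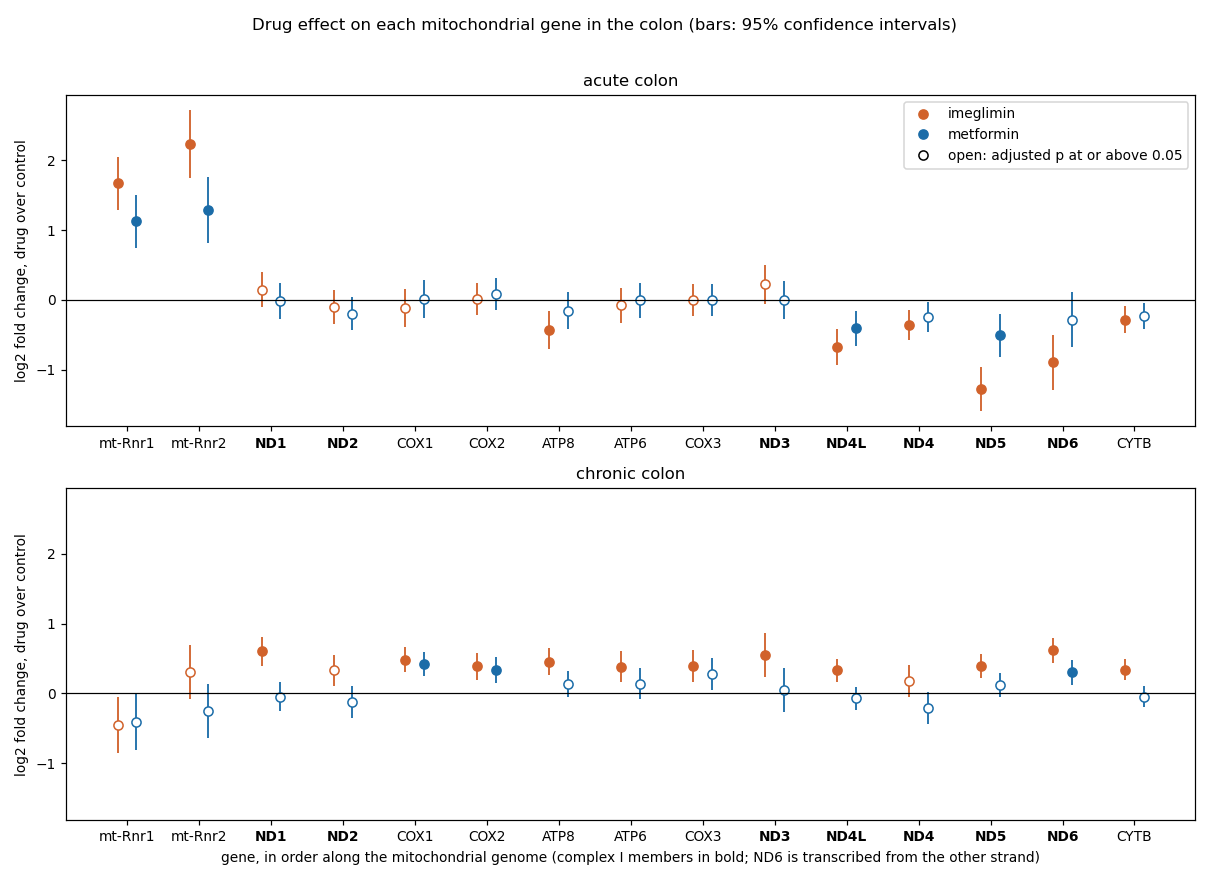
Log2 fold change over control of each mitochondrial gene in the order of the genome, for imeglimin and metformin in acute (top) and chronic (bottom) colon; bars are 95% confidence intervals and open points have an adjusted p of at least 0.05. Of the members, ND2, ND4L, ND4, ND5 and ND6 lie below 0 in acute colon with both drugs, ND2 with open points. ATP8 and CYTB lie below 0 there with imeglimin, and the ribosomal RNAs lie above 0 with both drugs. In chronic colon imeglimin lies above 0 for all 13 mRNAs.

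A share within a library does not depend on depth or scaling. ND5 made up 2.45%, 2.15% and 2.47% of the 13 mitochondrial mRNA counts with acute imeglimin, 3.43%, 3.79% and 4.11% with metformin and 5.60%, 4.88% and 4.87% in controls. The 3 groups did not overlap. The smallest p that an exact two-sided permutation test of 3 against 3 can give is 0.1, so no share can pass 0.05, and each non-overlapping pair below has that exact p. With imeglimin 4 members lay below the controls without overlap (ND4, ND4L, ND5 and ND6) and ND1 above, where 69.2% of the 13 mRNAs did not overlap. ND1 averaged 8.41% with imeglimin, 7.06% with metformin and 6.86% in controls. With metformin 3 members lay below (ND4, ND4L and ND5; 30.8% of the 13 did not overlap). With ND5 and ND6 left out of the other genes' denominator, 5 lay below with metformin (ND2 and ND6 as well; 46.2% of the 13). Between the drugs 2 were lower with imeglimin (ND5 and ND6) and 2 higher (ND1 and ND2; 38.5% of the 13).

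Within the shared mRNA, ND4L counts as a percentage of ND4 counts were 11.03, 10.02 and 11.39 with acute imeglimin, 10.62, 12.28 and 13.53 with metformin and 13.54, 13.83 and 13.18 in controls. Imeglimin libraries lay below controls, and metformin libraries reached the control range. ND5 counts as a percentage of those of its neighbour ND4 averaged 44.6% ± 3.58 with imeglimin, 71.0% ± 8.15 with metformin and 84.2% ± 9.53 in controls (SD, n = 3). ND6 as a percentage of ND5 averaged 5.14% ± 1.12 with imeglimin, 4.59% ± 0.474 with metformin and 3.87% ± 0.301 in controls, and both drug groups lay above the controls.

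Markers of cell types and of small intestine differed between some of these groups and overlapped between others. Fibroblast markers (10 of 10 tested) summed to 902 to 1089 CPM with acute imeglimin, 728 to 1253 CPM with metformin and 1150 to 1412 CPM in controls. Of these, 3 of 10 fell with imeglimin and 1 of 10 with metformin, where 15.1% and 8.37% of all genes fell. Small-intestine markers (4 of 6 tested) summed to 216 to 284 CPM with imeglimin, 134 to 281 CPM with metformin and 307 to 634 CPM in controls. Epithelial markers (10 of 10 tested) summed to 12424 to 14610 CPM with imeglimin, 13842 to 15229 CPM with metformin and 12148 to 13482 CPM in controls, so that the metformin libraries alone lay above the controls without overlap. Their part in the results was not tested.

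After 4 weeks of imeglimin the colon showed the other direction. Of the members 5 of 7 rose (ND1, ND6, ND3, ND5 and ND4L) and 0 fell, against 13% of 18665 genes called, 7.97% higher. The median log2 fold change was 0.39 over the members and -0.017 over all genes.

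ND1 had 6995, 6155 and 7361 CPM with imeglimin and 3939, 4566 and 4968 CPM in controls. It rose by 0.61 ± 0.093 on the log2 scale (edgeR adjusted p = 0.00516), with every imeglimin library above. ND6 had 203, 185 and 204 CPM with imeglimin and 129, 125 and 132 CPM in controls, a rise of 0.62 ± 0.080 (edgeR adjusted p = 0.00338). ND5 had 4135, 4190 and 4384 CPM with imeglimin and 3219, 2957 and 3512 CPM in controls, a rise of 0.39 ± 0.078 (edgeR adjusted p = 0.0124). The groups of both were apart by more than the spread within either group. ND4L had 920, 854 and 843 CPM with imeglimin and 671, 657 and 750 CPM in controls, a rise of 0.33 ± 0.073 (edgeR adjusted p = 0.0183). ND3 had 440, 359 and 325 CPM with imeglimin and 207, 261 and 298 CPM in controls, and rose by 0.55 ± 0.14 (edgeR adjusted p = 0.0325), a call lost with the replicate block (adjusted p = 0.052).

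ND2 had 3004, 2609 and 2768 CPM with imeglimin and 1987, 2073 and 2606 CPM in controls (0.33 ± 0.10, edgeR adjusted p = 0.0586). ND4 had 4829, 4371 and 4196 CPM with imeglimin and 3443, 3791 and 4633 CPM in controls, with overlap (0.17 ± 0.10, edgeR adjusted p = 0.299). The highest control of both was library 3, the library with pancreatic markers, and without it 6 members passed, ND2 among them. Without control library 1, control library 2 or imeglimin library 1, 3 passed (ND1, ND5 and ND6). The 6 other mitochondrial mRNAs all rose, by 0.34 to 0.49 on the log2 scale.

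With chronic metformin 1 of 7 members rose, against 19.7% of all genes called, 11.6% higher. ND6 had 144, 160 and 172 CPM with metformin and 129, 125 and 132 CPM in controls, all metformin libraries above, a rise of 0.30 ± 0.080 (edgeR adjusted p = 0.0264). Leaving out any single control, metformin library 2 or metformin library 3 ended that call, so that 0 members passed. The other 6 members lay at log2 fold changes of -0.20 (ND4) to 0.12 (ND5), with overlapping libraries and adjusted p of 0.188 to 0.817. ND1, for example, had 4264, 4444 and 4358 CPM with metformin and 3939, 4566 and 4968 CPM in controls (-0.044, 95% interval -0.25 to 0.16). Of the other mitochondrial mRNAs, COX1 (0.42 ± 0.079, adjusted p = 0.0058) and COX2 (0.34 ± 0.086, adjusted p = 0.0227), which encode the catalytic subunits of cytochrome oxidase, rose.

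At the same concentration, chronic imeglimin exceeded metformin in all 3 libraries for all 7 members (22.8% of all genes were apart in this way in either direction), by 0.27 to 0.65 on the log2 scale, and 2 of 7 passed, against 0.611% of all genes, 0.145% higher. ND1 was higher by 0.65 ± 0.093 (6995, 6155 and 7361 CPM with imeglimin against 4264, 4444 and 4358 CPM with metformin, edgeR adjusted p = 0.0222). ND4L was higher by 0.40 ± 0.073 (edgeR adjusted p = 0.0499). ND2 differed by 0.45 ± 0.10 (3004, 2609 and 2768 CPM with imeglimin, 2080, 2005 and 2033 CPM with metformin) and ND4 by 0.38 ± 0.10 (4829, 4371 and 4196 CPM with imeglimin, 3470, 3387 and 3454 CPM with metformin), with adjusted p of 0.0728 and 0.106. ND3, ND5 and ND6 differed by 0.50, 0.27 and 0.31, with adjusted p of 0.113, 0.117 and 0.0954. The block left 1 member (ND1; ND4L had an adjusted p of 0.0686), leaving out single libraries gave 0 to 2, and DESeq2 called all 7.

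Shares within the 13 mRNAs were compared in the same way. ND1 made up 5.58%, 5.88% and 5.44% with metformin and 6.59%, 6.98% and 6.87% in controls. ND4 made up 4.54%, 4.48% and 4.31% with metformin and 5.76%, 5.80% and 6.41% in controls. In all, 4 members (ND1, ND2, ND4 and ND4L) lay below the controls without overlap, where 76.9% of the 13 did not overlap. Imeglimin shares of ND4 (5.05%, 5.12% and 4.93%) and ND4L (mean 0.984% against 1.06% in controls) were below the controls and those of ND1 (7.31%, 7.21% and 8.65%) above (30.8% of the 13). Between the drugs 5 members had a higher share with imeglimin without overlap (69.2% of the 13). The share of ND5 averaged 4.79% with imeglimin, 4.54% with metformin and 4.92% in controls, and all 3 groups overlapped.

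**Figure D3:**
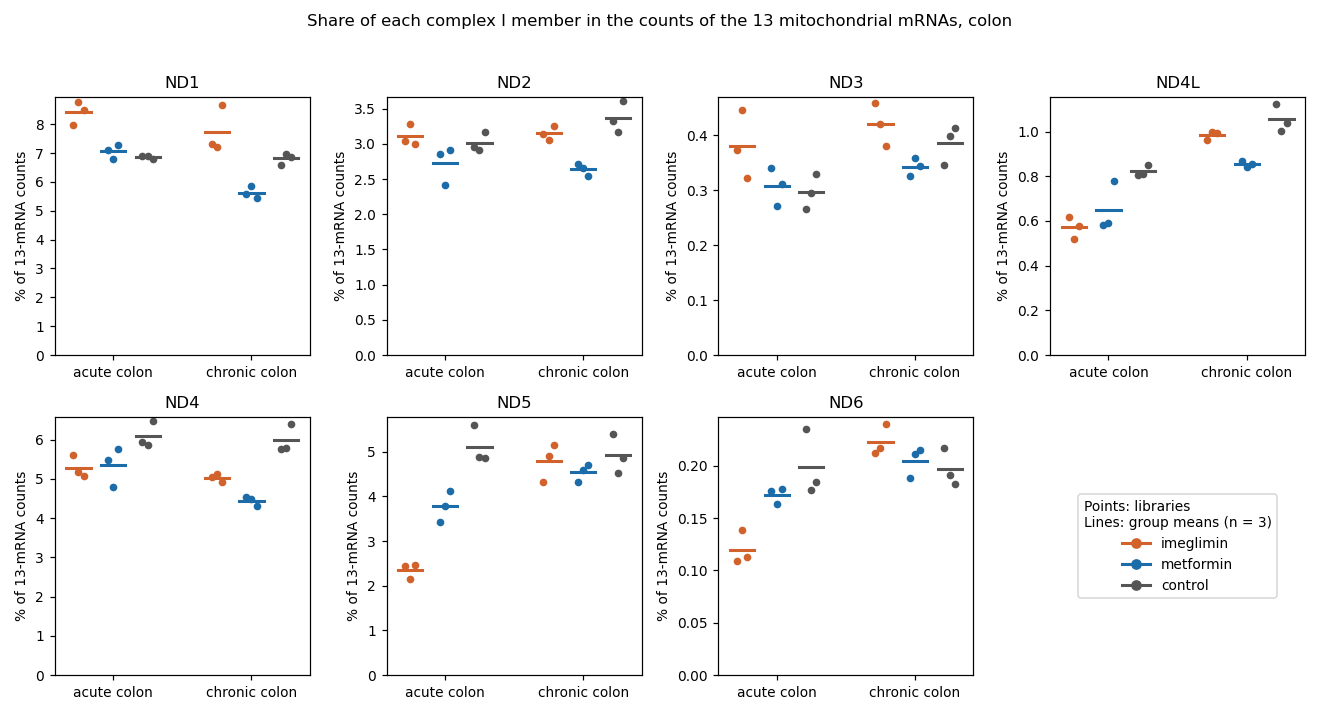
Share of each member in the counts of the 13 mitochondrial mRNAs in acute and chronic colon; points are libraries, lines are means of 3. The share of ND5 in acute colon averages 2.36% with imeglimin, 3.78% with metformin and 5.12% in controls, without overlap, while the ND5 groups of chronic colon overlap.

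Beside the chronic colon results, fibroblast markers summed to 856 to 1012 CPM with imeglimin, 848 to 879 CPM with metformin and 1116 to 1443 CPM in controls, with 3 of 10 lower with imeglimin and 8 of 10 with metformin. Smooth muscle markers summed to 4586 to 6289 CPM with imeglimin, 4228 to 4727 CPM with metformin and 6068 to 6300 CPM in controls (0 of 10 lower with imeglimin, 8 of 10 with metformin). Over all genes tested, 13% passed with imeglimin (7.97% higher, the rest lower) and 19.7% with metformin (11.6% higher, the rest lower). Epithelial markers summed to 14294 to 15963 CPM with imeglimin, 14795 to 15800 CPM with metformin and 12635 to 13931 CPM in controls. Colon markers (6 of 6 tested) were below the controls without overlap, at 1240 to 1445 CPM with imeglimin, 1479 to 1599 CPM with metformin and 1650 to 1902 CPM in controls. Their part in the results was not tested.

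Whether the drug effects differed between 6 h and 4 weeks was tested as an interaction over the 18 colon libraries (19369 genes). For imeglimin the effect was lower in the acute than in the chronic colon for 5 of 7 members, against 16.3% of genes called, 8.72% lower. The differences of the log2 fold changes were -1.69 ± 0.17 for ND5 (edgeR adjusted p = 2.4e-05), -1.54 ± 0.21 for ND6 (0.00027), -1.03 ± 0.14 for ND4L (0.000228), -0.55 ± 0.15 for ND4 (0.0163) and -0.49 ± 0.15 for ND1 (0.0397). ND5, ND6 and ND4L thus fell in acute and rose in chronic colon, each past the threshold against its own controls. ND2 (-0.46 ± 0.15, adjusted p = 0.0508) and ND3 (-0.35 ± 0.20, adjusted p = 0.243) did not pass. With the replicate block ND1 was lost (adjusted p = 0.0628).

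For metformin, 1 of 7 members differed, against 6.22% of genes, 3.9% lower. ND5 had an effect lower by 0.66 ± 0.17 in the acute colon (edgeR adjusted p = 0.0312), which the block (adjusted p = 0.0565) and every omission of a replicate number ended. Acute and chronic colon also differ by more than time. They differ in dosing (a single dose or drinking water) and deposited table, and colon markers summed to 8489 to 13591 CPM in acute libraries (5 of 6 tested) and 1240 to 1902 CPM in chronic ones (6 of 6). Small-intestine markers (4 of 6 tested in each) summed to 134 to 634 CPM in acute and 3.72 to 31.2 CPM in chronic colon libraries. These differences cannot be told apart from duration.

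In the small intestine 0 of 7 members passed in any of the 9 drug comparisons, and all 7 were tested in each. Over all genes tested, imeglimin against control passed for 1.16% (proximal), 0.0279% (middle) and 0.0219% (distal). Metformin against control passed for 4.11%, 0.34% and 0.625%, and imeglimin against metformin for 1.09%, 0.0% and 0.0494%, in the same order of segments. Few genes of any kind were called there, so the count of 0 is near the background.

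The proximal segment came closest. ND4L had 829, 824 and 834 CPM with imeglimin, 1008, 970 and 981 CPM with metformin and 727, 883 and 877 CPM in controls. ND5 had 3970, 4193 and 3855 CPM with imeglimin, 5229, 4849 and 4812 CPM with metformin and 4063, 4647 and 4168 CPM in controls. Metformin libraries of both lay above all others. The log2 fold changes of metformin over control were 0.25 ± 0.082 for ND4L, 0.21 ± 0.090 for ND5 and 0.25 ± 0.10 for ND6, with edgeR adjusted p of 0.111, 0.219 and 0.187, and these 3 members had an unadjusted p under 0.05. Imeglimin was below metformin by 0.25 for ND4L and 0.31 for ND5 (adjusted p = 0.154 and 0.119), the 2 members with an unadjusted p under 0.05. DESeq2 called 2 members, ND4L and ND5, in both of these comparisons. For imeglimin against control, log2 fold changes ran from -0.10 to 0.14, 0 members had an unadjusted p under 0.05, and DESeq2 called 0.

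In middle and distal small intestine 0 members had an unadjusted p under 0.05 in any comparison, and DESeq2 called 0. In the middle segment log2 fold changes over control ran from -0.097 to 0.41 with imeglimin and from -0.023 to 0.29 with metformin. ND3 was the highest, at 417, 345 and 357 CPM with imeglimin and 177, 329 and 336 CPM in controls, the imeglimin libraries above without overlap (adjusted p = 0.341). Middle control library 1 was the lowest of its group for all 7 members. In the distal segment they ran from -0.11 to 0.15 with imeglimin and from -0.077 to 0.24 with metformin, with 95% intervals of up to -0.66 to 0.86. ND5, for example, had 3774, 2700 and 3082 CPM with imeglimin, 2808, 3839 and 3709 CPM with metformin and 3518, 3467 and 3326 CPM in controls. The log2 change of -1.28 seen for ND5 in acute colon lay outside every small-intestine interval against control. The rise of 0.61 seen for ND1 in chronic colon lay inside its distal interval, which reached 0.77 with imeglimin.

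**Figure D4:**
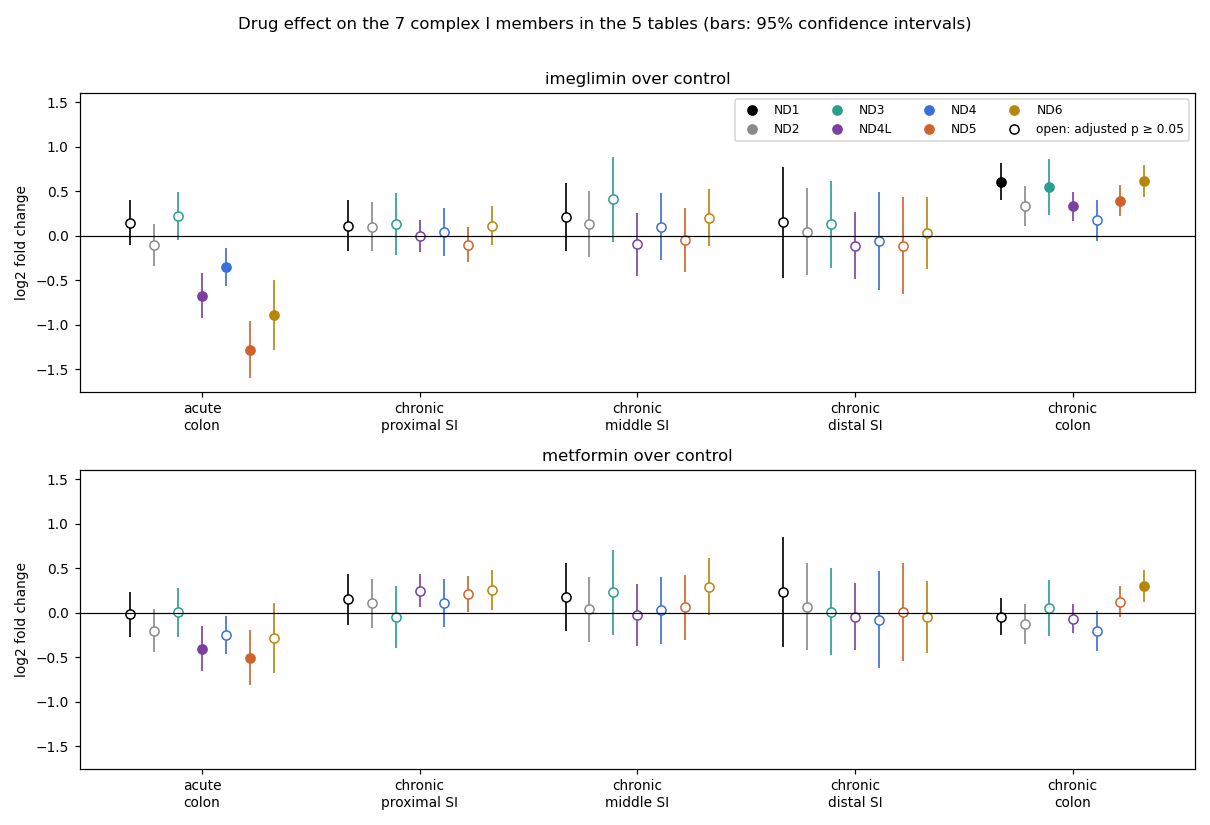
Log2 fold change over control of each member in the 5 tables, for imeglimin (top) and metformin (bottom); bars are 95% confidence intervals and open points have an adjusted p of at least 0.05. Filled points stand in colon alone, below 0 in acute and above 0 in chronic colon, and all 42 small-intestine points are open.

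The shares were compared there too, and again no exact p can be under 0.1. In the distal segment the metformin libraries lay below the controls without overlap for 5 members (ND2, ND4, ND4L, ND5 and ND6; 61.5% of the 13 mRNAs did not overlap) and the imeglimin libraries for 3 (ND4, ND4L and ND5; 38.5%). ND4 made up 5.60%, 5.46% and 5.59% with imeglimin, 5.13%, 4.93% and 4.79% with metformin and 6.25%, 6.12% and 6.03% in controls, 3 groups without overlap. Distal imeglimin shares exceeded those of metformin for 5 members (53.8%). In the middle segment 4 members were below the controls and 1 above with metformin (46.2%), and 2 below and 1 above with imeglimin (38.5%), and 2 were higher with imeglimin than with metformin (38.5%). In the proximal segment 1 was below the controls with imeglimin (7.69%) and 2 with metformin (38.5%), and between the drugs 3 were higher and 2 lower with imeglimin (53.8%). Adjusted over the 13 mRNAs of a comparison, the exact p-values of all 15 comparisons were 0.13 or more.

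Markers of other cells also differed between these groups. In the distal segment fibroblast markers (10 of 10 tested) summed to 361 to 491 CPM with imeglimin, 334 to 455 CPM with metformin and 510 to 929 CPM in controls. Smooth muscle markers there summed to 1335 to 2509 CPM with imeglimin, 1258 to 2120 CPM with metformin and 2335 to 3133 CPM in controls. Both lists were below the controls without overlap with metformin, and with imeglimin the fibroblast list was. In the proximal segment 1.16% of all genes passed with imeglimin and 4.11% with metformin, in either direction. Fibroblast markers there summed to 247 to 287 CPM with imeglimin, 237 to 251 CPM with metformin and 305 to 467 CPM in controls (2 of 10 fell with imeglimin and 5 with metformin). Smooth muscle markers there were at 1628 to 1902 CPM with imeglimin, 875 to 1194 CPM with metformin and 1439 to 1757 CPM in controls (9 of 10 fell with metformin). Endothelial markers were below the controls without overlap with imeglimin in the proximal (58.5 to 66.9 against 88.5 to 103 CPM) and the middle segment (57.5 to 72.7 against 92.4 to 99.7 CPM). With proximal metformin, markers of B and plasma cells were below the controls (732 to 814 against 1113 to 1289 CPM). So were markers of T and NK cells (152 to 206 against 240 to 304 CPM). Small-intestine markers lay above the controls there (18459 to 20328 against 13664 to 17267 CPM), and none of these lists overlapped. Their part in the results was not tested. Leaving out distal control library 1 left 0 members called in the distal segment.

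Summed over the 7 members, the share of the mitochondrial mRNA counts was below the controls in each metformin group and in all imeglimin groups except chronic colon, without overlap. The means were 20.2% with imeglimin, 20.05% with metformin and 22.4% in controls in acute colon, 26.8%, 26.1% and 27.5% in the proximal segment, 26.5%, 25.6% and 27.4% in the middle one and 24.6%, 23.0% and 25.9% in the distal one, in the same order. For chronic colon they were 22.3% with imeglimin, 18.7% with metformin and 22.7% in controls. There the imeglimin libraries (21.5%, 21.9% and 23.6%) overlapped the controls (22.8%, 22.1% and 23.4%), and the metformin libraries (18.5%, 19.0% and 18.4%) lay apart from both. The shares of a library depend on each other. With metformin COX1 lay above the controls in distal segment (43.5% against 37.9%) and chronic colon (48.0% against 42.2%). CYTB, not a complex I gene, lay below in both (9.25% against 11.4%, 8.65% against 10.5%). None of these overlapped, so a lower share was not particular to the members there. The CYTB share with metformin was above the controls in the proximal segment and overlapped them in middle segment and acute colon.

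Whether a drug's effect differed among the 4 chronic segments was tested with 3 interaction terms over 36 libraries (20053 genes). For imeglimin 0 of 7 members passed (2.96% of genes did), with edgeR adjusted p of 0.243 to 0.91, 2 members (ND5 and ND6) under 0.05 unadjusted and 0 called by DESeq2. For metformin 0 of 7 passed (4.03% of genes did), with adjusted p of 0.608 to 0.952, 0 under 0.05 unadjusted and 0 called by DESeq2. The rise of members in chronic colon is therefore not shown to differ from the small intestine. The segments carry the same replicate numbers, so libraries of different segments may come from the same mice. The labels do not say, and the fit counts the 36 libraries as independent.

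In the chronic controls, on a scale shared by all 36 chronic libraries, the mean of all 7 members was highest in the proximal segment, a step that did not pass the test. Going down the gut, ND1 averaged 6076, 4917, 3830 and 3844 CPM per kb in proximal, middle, distal and colon samples. ND4 averaged 3655, 2951, 2176 and 2351, and ND6 389, 320, 271 and 203 CPM per kb in the same order. Distal against middle, 3 of 7 members were lower (9.97% of genes called, 6.65% lower), namely ND4L (-0.58 ± 0.13, edgeR adjusted p = 0.00246), ND5 (-0.44 ± 0.14, 0.0347) and ND2 (-0.50 ± 0.15, 0.0372). The block left ND4L (adjusted p = 0.0852 for ND2 and 0.0916 for ND5), and 6 members passed without replicate number 1 (which holds distal control library 1) and 0 without number 2 or 3. Fibroblast markers in these controls summed to 510 to 929 CPM in the distal and 334 to 495 CPM in the middle segment, each on the scale of its own table. Of these, 2 of 10 were higher in the distal segment, where 9.97% of all genes passed in either direction. The part of these markers in the step was not tested. Middle against proximal, 0 passed (6.71% of genes did), with log2 differences of -0.34 to -0.17, 1 member (ND2) under 0.05 unadjusted and 0 called by DESeq2. Colon against distal, 1 was lower (45% of genes called, 23.6% lower), ND6 by 0.42 ± 0.14 (edgeR adjusted p = 0.0171), a call lost without replicate number 1 or 2. Segment and deposited table are the same split and cannot be told apart.

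Nuclear genes complete the complex. In acute colon the nuclear core subunits, most of which carry redox centres, rose in 6 of 7 cases with imeglimin and 3 of 7 with metformin, and 0 fell, while 0 mitochondrial members rose. Over all genes 18.1% rose with imeglimin and 11.3% with metformin. Among them Ndufs7 rose by 0.80 ± 0.12 with imeglimin (139 CPM against 79.9 CPM in controls, edgeR adjusted p = 0.000691) and by 0.47 ± 0.12 with metformin (111 CPM, adjusted p = 0.0185), and Ndufs8 rose by 0.58 ± 0.11 with imeglimin. Accessory subunits rose in 26 of 29 tested with imeglimin and 10 of 29 with metformin, with 0 lower, for example Ndufb10 by 0.86 ± 0.12 with imeglimin and 0.53 ± 0.12 with metformin. List medians with imeglimin and metformin were 0.42 and 0.35 for core and 0.58 and 0.28 for accessory subunits, against -0.030 and -0.037 over all genes. Of 17 assembly factors tested, 9 rose and 2 fell with imeglimin and 7 rose with metformin. The largest moves were of Ndufaf4, an early assembly factor, by 1.18 ± 0.10 with imeglimin (47.7 CPM against 21.1 CPM in controls, adjusted p = 4.25e-05) and 1.28 ± 0.10 with metformin (51.2 CPM, adjusted p = 6.23e-05). Ecsit, an assembly factor of the membrane arm, rose by 0.86 ± 0.11 with imeglimin and 0.84 ± 0.11 with metformin.

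Genes that make and keep mitochondrial RNA were counted in the same way. Of 17 genes for mitochondrial transcription and DNA, 4 rose and 4 fell with acute imeglimin and 3 rose and 3 fell with metformin, near the shares over all genes (18.1% higher and 15.1% lower with imeglimin, 11.3% and 8.37% with metformin). Primpol, a primase-polymerase, fell by 0.81 ± 0.13 with imeglimin (8.70 CPM against 15.3 CPM in controls) and by 0.63 ± 0.13 with metformin (9.85 CPM). Mterf2, of the mitochondrial termination factor family, fell by 0.91 ± 0.16 with imeglimin, and Tefm, the mitochondrial transcription elongation factor, rose by 0.73 ± 0.15 with metformin (edgeR adjusted p = 0.00735). Of 22 genes for RNA processing and stability, 10 rose and 1 fell with imeglimin and 12 rose and 1 fell with metformin. Fastkd2, which binds the large ribosomal RNA mt-Rnr2 and ND6 mRNA in human cells, rose by 0.54 ± 0.10 with imeglimin and 0.78 ± 0.10 with metformin. Supv3l1, the helicase of the mitochondrial RNA degradosome, rose by 0.87 ± 0.13 with metformin (edgeR adjusted p = 0.00100), and Angel2 fell by 0.70 ± 0.10 with imeglimin.

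In chronic colon the nuclear core subunits rose in 7 of 7 cases with imeglimin and 7 of 7 with metformin, at list medians of 0.53 and 0.82. Accessory subunits rose in 24 of 29 with imeglimin and 29 of 29 with metformin (medians 0.50 and 0.75), and 0 fell, where 7.97% of all genes rose with imeglimin and 11.6% with metformin. Ndufv2 rose by 0.59 ± 0.069 with imeglimin and 0.68 ± 0.069 with metformin, and Ndufv1, the NADH-binding subunit, by 0.82 ± 0.068 with metformin. With metformin the members of the mitochondrial genome thus had a median of -0.044 beside nuclear medians above 0.7, and with imeglimin 5 of 7 members rose beside the nuclear subunits. Of the assembly factors 3 of 17 rose with imeglimin (7.97% of all genes) and 6 of 17 with metformin (11.6%). Lrpprc, which stabilises mitochondrial mRNAs, rose by 0.73 ± 0.13 with imeglimin (78.9 CPM against 47.5 CPM in controls, edgeR adjusted p = 0.00855) and by 0.80 ± 0.13 with metformin (83.0 CPM, adjusted p = 0.00294). Tfam, the DNA-packaging transcription factor, rose by 0.28 ± 0.073 with imeglimin (adjusted p = 0.033). Mterf2, which fell in acute colon, rose by 0.62 ± 0.17 with chronic imeglimin (9.34 CPM against 6.08 CPM in controls, edgeR adjusted p = 0.0425). Tfb2m, a transcription initiation factor, fell by 0.33 ± 0.10 with metformin (adjusted p = 0.0472). In the small intestine 2 genes of these lists passed against control, both with proximal metformin, Ndufa6 (0.48 ± 0.080) and Dmac2 (0.35 ± 0.075).

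**Figure D5:**
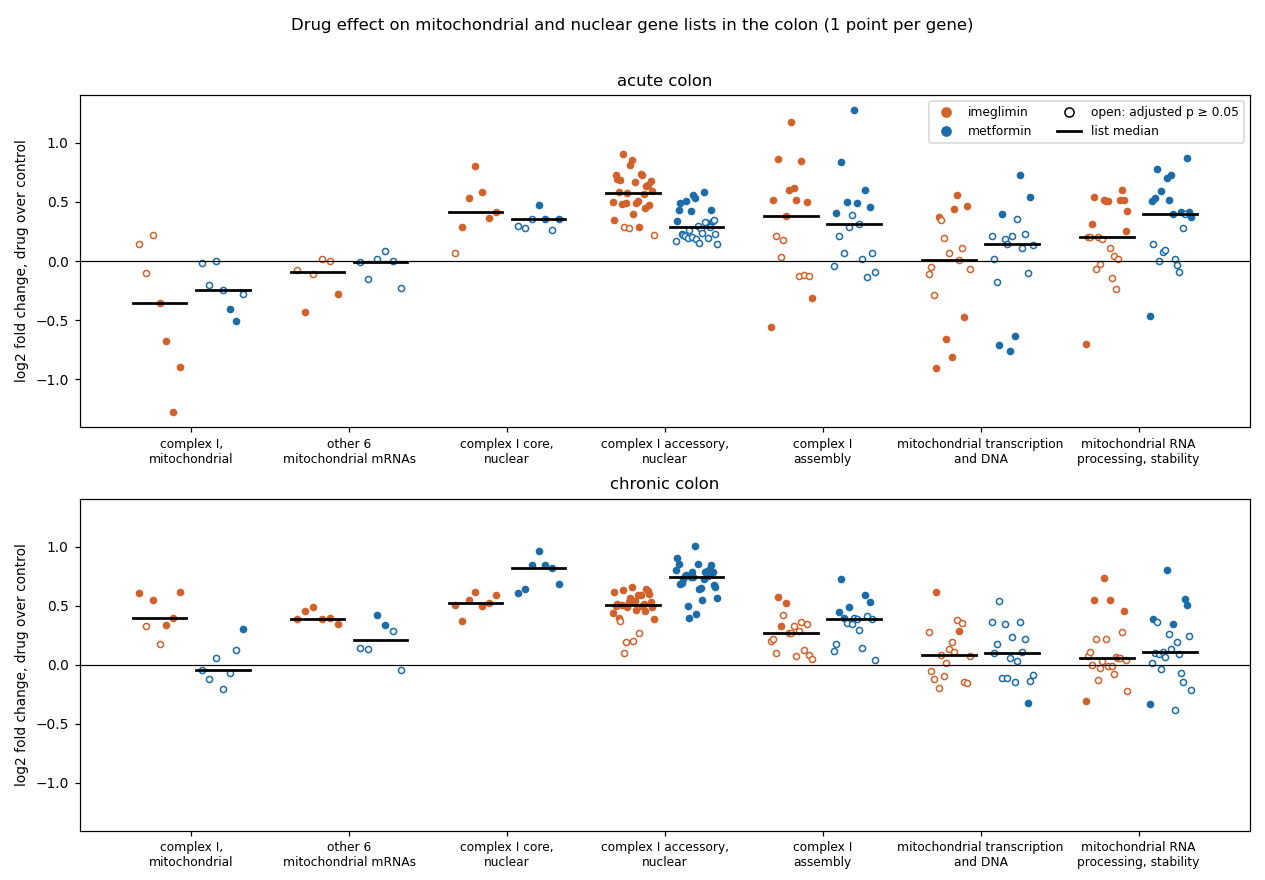
Log2 fold change over control of each gene of the mitochondrial and nuclear lists in acute (top) and chronic (bottom) colon, with imeglimin left of metformin in each list; lines are list medians and open points have an adjusted p of at least 0.05. In acute colon the complex I members lie at medians of -0.35 and -0.25 while the nuclear core subunits lie at 0.42 and 0.35.

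Across the 45 libraries, each centred on the mean of its table, the members fell into 2 patterns of covariation. ND1, ND2 and ND3 varied together (Pearson r of 0.79 to 0.89), as did ND4L, ND5 and ND6 (0.76 to 0.88), and ND4 was closest to ND2 (0.90). Between the patterns r went down to 0.10 for ND3 with ND5 and 0.27 for ND1 with ND5. These values describe libraries that share tables, batches and drug groups. Outside the mitochondrial genome, the genes most like the mean of the 7 members, of 10947 ranked, were Alg6 (Pearson r 0.80, Spearman rho 0.71), Krcc1 (0.73, 0.61), Ufsp2 (0.72, 0.71), Cdkl2 (0.70, 0.68) and Arrdc3 (0.70, 0.60).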

How the data were processed

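RNA of mouse intestine was purified with RNeasy columns and made into libraries with the TruSeq Stranded mRNA kit, per the labels' protocols. Whole-number gene counts were deposited by the authors in 5 tables, each of 9 libraries. Per the submitters' processing notes, HISAT2 and StringTie were among the tools, with FastQC and Trimmomatic, and the builds mm10 and GRCm39 are listed without roles, so no coordinates are printed. Gene lengths, order and sequences came from GRCm38 with GENCODE M21. All columns of counts were mapped to samples (0 left unmapped), and 26 symbols of the chronic colon table had turned into dates and dropped out of joins. A single-cell sample of colon at 12 weeks was not used. Replicates of a group differed by more than sampling noise (chi-square of 13.4 to 193 per gene).

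The members, gene lists and tests were chosen with earlier results of these data known. Counts were tested with edgeR 4.0.16 (TMM scaling, filterByExpr, quasi-likelihood F test), run under R 4.3.3 on limma 3.58.1. The 9 libraries of a table were fitted together, and the Benjamini-Hochberg adjustment ran over all genes tested, at 0.05. The code was tested on simulated data. Levels are CPM, and ± after a log2 fold change is its SE. Drug effects were compared between tables by interaction terms. Shares within the 13 mitochondrial mRNAs were compared by exact two-sided permutation tests (scipy 1.17.1, Python 3.11.15), and figures were drawn with matplotlib 3.10.9. Named nuclear genes are the 2 with the smallest p among those called per list and comparison, and the 5 most correlated genes.

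The labels' batch tag equals the replicate number, so the numbers may pair libraries. The main tests left this possible pairing out, and the replicate block put it in. As a check, the departures from group means of libraries with the same number were correlated, at means of -0.018 for acute colon, -0.0054, -0.126 and -0.168 for the proximal, middle and distal segments, and 0.0878 for chronic colon. Alternatives were RLE scaling, no filter beyond 1 read, DESeq2 1.42.0, a replicate block and leaving out libraries.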

Additional observations from a re-analysis of the deposited data

Results flagged for a closer look

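By an interaction test in edgeR over 18 libraries, the effect of imeglimin over control differed between acute and chronic colon for 5 members. Of all genes, 16.3% passed. The differences, acute minus chronic, were -1.69 for ND5, -1.54 for ND6, -1.03 for ND4L, -0.55 for ND4 and -0.49 for ND1 on the log2 scale. The replicate block ended the call of ND1. The effect of metformin differed for ND5, by -0.66, where 6.22% of all genes passed. The block and every omission of a replicate number ended that ND5 call. Groups of 3 libraries are too small for a test of single outlying libraries. The libraries named above as standing apart were picked by their marker sums.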

How the results depend on the processing

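Of 1708 values of single members under other settings, 1620 kept their side of the threshold, 69 lost and 19 gained a call, and 0 turned a called direction. These values come from 154 pairs of member and comparison, most of them not called in the main fit and so unable to lose a call. The 1620 therefore do not measure how stable the calls were, and the counts below do so more directly. Among the 1620, 86 changed sign with neither value called, at up to 0.23 on the log2 scale. With ND5 and ND6 left out of the denominator of the shares, 4 pairs of member and comparison changed. ND2 and ND6 with acute metformin and ND4 with middle imeglimin came to lie below the controls, and ND1 of proximal imeglimin came to overlap metformin. Counts of called members that moved by over 1.5 times were these. Under the replicate block, acute metformin against control had 1, acute imeglimin against metformin 0, chronic colon imeglimin against metformin 1, the metformin interaction of acute and chronic colon 0 and distal against middle controls 1. Beside these and the single calls named above, the block changed no other call. DESeq2 called 2 for acute imeglimin against metformin, 2 for proximal metformin against control, 2 for proximal imeglimin against metformin, 7 for chronic colon imeglimin against metformin and 2 for colon against distal controls. Without the filter, chronic colon imeglimin against metformin had 1 and distal against middle controls 1. Leaving out single libraries gave 0 to 2 for acute metformin against control, 0 to 1 for acute imeglimin against metformin, 0 to 1 for chronic colon metformin against control, 3 to 6 for chronic colon imeglimin against control and 0 to 2 for imeglimin against metformin there. Leaving out a replicate number gave 0 for the metformin interaction, 3 to 4 for the imeglimin interaction, 0 to 6 for distal against middle controls and 0 to 1 for colon against distal controls. The cause was not tested. With 3 libraries a group, small-intestine intervals reached 0.89 on the log2 scale, which limits what could be detected there.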
